A study of Danio rerio with 20 samples.

Results

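The cytochrome P450 (CYP) genes of zebrafish larvae were described in RNA sequencing libraries from larvae exposed to citalopram, to ifosfamide, or kept in the group named ERM. Members were the gene models whose symbol in the deposited table starts with cyp followed by a digit, except cyp51, which gave 84 of 38718 gene models. The rule itself used no measured value, but it was set with earlier results of these data known. Of the 84, 58 had a mean of at least 1 FPKM over the 20 libraries and entered the tests, and 26 lay below that level. FPKM stands for fragments per kilobase of gene, here a level scaled to gene length and to a size factor of each library.

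Citalopram, a selective serotonin reuptake inhibitor, was given at 1000 µg/L and at 10 µg/L, and ifosfamide, an alkylating anticancer prodrug, at 100 µg/L and at 1 µg/L. The labels do not spell out ERM. Its treatment entry names a dose of 1 µg/L without saying of what, and ERM was taken as the group without either drug. Each of the 5 groups had 4 libraries of whole larvae, drawn from 5 beakers per treatment. Strain, age, length of exposure and the number of larvae per library are not given in the sources used here. Nothing in the labels marks the libraries as separate clutches, so p-values measure the spread between these beakers.

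Cytochromes P450 are haem enzymes that insert oxygen into lipids, hormones, vitamins and drugs. Members of the CYP1, CYP2 and CYP3 families act mainly on foreign compounds and fatty acids, while other families each serve a step of bile acid, steroid, retinoic acid or vitamin D metabolism. In humans, both drugs are metabolised by liver enzymes of the CYP2 and CYP3 families, and ifosfamide needs this step to become active. In vertebrates the liver and intestine hold much of the drug-handling activity, and cyp1a is the classic target of the aryl hydrocarbon receptor.

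The levels spanned a wide range, and 1 gene held about as much as all the others together. cyp3a65 (ENSDARG00000103295, chromosome 1, 59338175 to 59348118), a CYP3A drug-metabolising gene of zebrafish, averaged 692 FPKM over the 20 libraries. Its share of the summed FPKM of the 84 members ran from 36.9% to 58.1% between libraries. cyp24a1 (ENSDARG00000103277), which inactivates vitamin D, followed with 184 FPKM. Next came cyp2ad3 with 76.5 FPKM, cyp7a1 with 44.5 FPKM, cyp3c1 with 40.4 FPKM and cyp1a with 27.0 FPKM. By family, CYP3 held 54.6% of the summed level in 5 members and CYP2 held 21.4% in 42 members. Only 2 members averaged at least 100 FPKM, 19 at least 10 FPKM and 69 at least 0.1 FPKM.

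**Figure D1:**
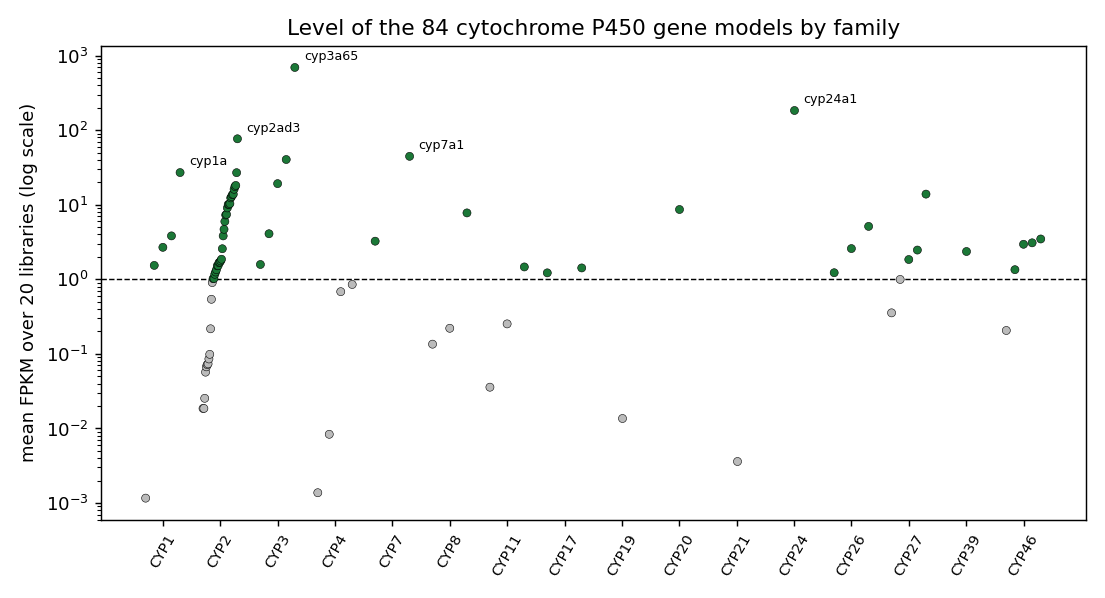
Mean FPKM over the 20 libraries (log axis) of each of the 84 cytochrome P450 gene models, placed by family; green points were tested and grey points lie below the dashed line at 1 FPKM. cyp3a65 at 692 FPKM and cyp24a1 at 184 FPKM stand above all other members.

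The 26 members below 1 FPKM included all 4 CYP4 genes, which act on fatty acids, and several steroid-making genes. The highest of the CYP4 genes was cyp4t8 with a mean of 0.853 FPKM. The side-chain cleavage genes cyp11a2 and cyp11a1, which start steroid synthesis, averaged 0.253 and 0.0358 FPKM. The gonadal aromatase gene cyp19a1a, which makes oestrogens, averaged 0.0138 FPKM and was above 0 in 6 of the 20 libraries. cyp21a2 was above 0 in 3 libraries, and cyp4v8 and cyp1b1 in 1 library each. cyp2j20 was at 0.150, 0.227, 0.292 and 0.0456 FPKM in the citalopram 1000 µg/L libraries, a level too low for the tests, and at 0 in all 4 ERM libraries. It reached 0.103 FPKM at citalopram 10 µg/L, 0.102 FPKM at ifosfamide 100 µg/L and 0.123 FPKM at 1 µg/L. These values rest on 28 reads over the 20 libraries, and cyp2j20 overlaps cyp2p7 on the same strand. How many gene models at such levels separate likewise was not counted. Nearest to the threshold were cyp2aa3 and cyp2aa4, both at 1.02 FPKM, just above it. cyp27a1.2 at 0.996 FPKM and cyp2aa11 (ENSDARG00000103456) at 0.904 FPKM lay just below.

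Depth ranged from 10699832 to 17311011 reads per library, as recovered from the FPKM values. Library C of citalopram 1000 µg/L stood apart, since it detected 25952 gene models and the other libraries 28913 to 30110. Its size factor also scaled it to a total of 8.71e+06, below the 13654523 reads recovered from it. Its FPKM thus lie above values scaled to depth. This library was the highest of all 20 libraries in 19 of the 58 tested members. Library C of ifosfamide 100 µg/L was the lowest of all 20 in 19 members, some of them the same, cyp1a and cyp20a1 among these. For many of the values that leaving out either library moved, both are given.

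No member passed the threshold of a limma adjusted p of 0.05 in any of the 7 tests, which were the 4 drug groups against ERM, the doses of each drug against each other and an F-test over the 4 drug groups. The share of all 19723 tested gene models past that threshold was 0.0304% at citalopram 1000 µg/L, 0.0101% at citalopram 10 µg/L and 0% in the other 5 tests. At an unadjusted p under 0.05, 4 members were higher and 4 lower at citalopram 1000 µg/L, against 3.1% and 4.17% of all tested gene models (7.27% in either direction). At citalopram 10 µg/L, 2 were higher and 1 lower, against 1.27% and 1.16%. At ifosfamide 100 µg/L, 0 were higher and 5 lower, against 1.48% and 1.79% (3.27% together), and at the low ifosfamide dose 0 were higher and 2 lower, against 1.84% and 2.96%. The F-test gave 7 members at an unadjusted p under 0.05, against 5.77%. Without library C of citalopram 1000 µg/L, 3 members were higher and 8 lower at that dose. Without library C of ifosfamide 100 µg/L, 2 were higher and 4 lower there. With libraries scaled to equal FPKM sums, 1 was higher and 7 lower at citalopram 1000 µg/L. That scaling gave 0 and 2 at ifosfamide 100 µg/L, and 2 and 0 at 1 µg/L. The shares of all gene models in these fits are not given, so these counts cannot be read as particular to the members. limma's voom on the recovered reads also called 0 members in all 7 tests. Weighting the libraries by their estimated quality brought members past the threshold, namely 14 for the high citalopram dose and 2 for the high ifosfamide dose under default weights that did not converge, and 0 and 3 under gene-by-gene weights. Of all 19723 gene models, the default weights brought 3879 and 209 past it in these comparisons, and the gene-by-gene weights 167 and 860.

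The members' median log2 change against ERM was 0.01 at citalopram 1000 µg/L, with 31 of 58 positive, and -0.01 at citalopram 10 µg/L. Without library C of citalopram 1000 µg/L it was -0.05 there, with 23 positive. For the high ifosfamide dose it was -0.11, with 13 of 58 positive, and at ifosfamide 1 µg/L it was -0.06, with 21 of 58 positive. At the high ifosfamide dose it was -0.08 without library C, with 21 positive, -0.16 without library A and -0.19 without library B. At the low dose it was -0.04 without library B. With the summed liver markers as a covariate the medians were -0.09 at the high ifosfamide dose, with 19 positive, and -0.0002 at the low dose, with 29 positive. The marker medians beside them were -0.27 and -0.32 for liver, -0.32 at either dose for intestine, and -0.20 and -0.33 for pancreas. The median of all tested gene models lay between -0.01 and 0.00 in these 4 comparisons. When libraries were scaled to equal FPKM sums, the median of all gene models moved to 0.15 at ifosfamide 100 µg/L and 0.19 at ifosfamide 1 µg/L. The members' medians then turned positive, at 0.03 and 0.11, and stayed below that of all gene models. At citalopram 1000 µg/L the same scaling gave a members' median of -0.096, with 17 of 58 positive, and -0.094 for all gene models. At citalopram 10 µg/L it gave -0.045, with 23 positive, and -0.038 for all gene models. The 4 comparisons share the ERM libraries.

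**Figure D2:**
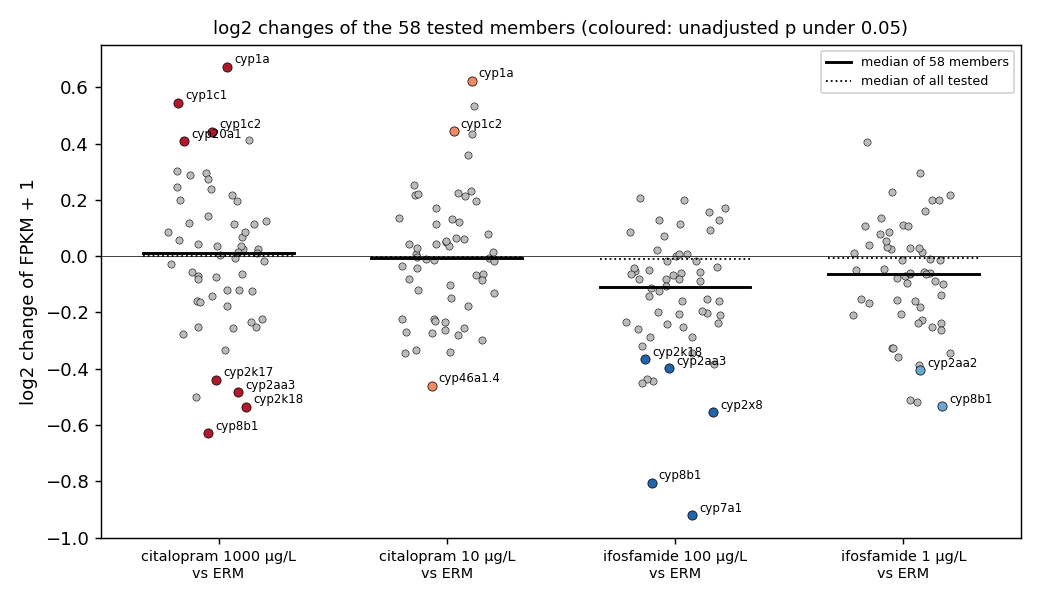
log2 change of FPKM + 1 against ERM (vertical axis) of the 58 tested members in the 4 drug groups; coloured points have an unadjusted limma p under 0.05, thick bars mark the members' median and dotted bars that of all tested gene models. cyp1a lies highest under both citalopram doses, cyp8b1 lowest at citalopram 1000 µg/L and cyp7a1 lowest at ifosfamide 100 µg/L.

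Among the CYP1 genes, several of which respond to aryl hydrocarbon receptor ligands, cyp1a and cyp1c2 were higher in every citalopram library than in any ERM library. No CYP1 gene passed the test with equal weights. cyp1a (ENSDARG00000098315, chromosome 18, 5588068 to 5598958) had 33.4, 27.5, 56.2 and 28.9 FPKM at citalopram 1000 µg/L. At citalopram 10 µg/L it had 25.9, 31.0, 39.4 and 41.3 FPKM, against 23.0, 20.2, 22.8 and 20.5 FPKM in ERM. All 8 citalopram libraries thus lay above all 4 ERM libraries. The log2 change was 0.67 at 1000 µg/L (SE 0.19, 95% interval 0.26 to 1.08, limma adjusted p = 0.292) and 0.45 without library C. The same measure was 0.62 at 10 µg/L (SE 0.19, 95% interval 0.22 to 1.03, limma adjusted p = 1.00). With the default library weights, which did not converge, the limma adjusted p of cyp1a at 1000 µg/L was 0.000533. Gene by gene, no member passed at that dose. Its F-test had a limma adjusted p of 0.335 with equal weights, 3.94e-05 with the default weights and 0.0115 gene by gene. Under ifosfamide cyp1a ran from 16.5 to 24.9 FPKM at 100 µg/L and from 18.8 to 22.7 FPKM at 1 µg/L, and both groups overlapped ERM.

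The CYP1C paralogues were next. cyp1c2 had 1.57, 2.04, 2.15 and 1.71 FPKM at citalopram 1000 µg/L and 1.975, 1.76, 1.56 and 2.19 FPKM at 10 µg/L, against 1.498, 1.49, 0.849 and 0.704 FPKM in ERM. Both citalopram groups lay wholly above ERM, the nearest libraries being 1.56 and 1.498 FPKM. The log2 change of cyp1c2 was 0.44 at either dose (SE 0.16 each), with limma adjusted p of 0.505 at 1000 µg/L (0.0357 with the default weights) and 1.00 at 10 µg/L. cyp1c1 had 3.79, 3.04, 9.34 and 5.40 FPKM at citalopram 1000 µg/L and 4.602, 4.38, 4.38 and 4.80 FPKM at 10 µg/L. The 4 ERM libraries ranged from 2.71 to 3.36 FPKM, so that the low dose did not overlap ERM and the high dose did. The log2 change of cyp1c1 was 0.55 at 1000 µg/L (limma adjusted p = 0.551) and 0.28 without library C. cyp1d1, the fourth tested CYP1 gene, had a log2 change of -0.07 at 1000 µg/L and -0.01 at 10 µg/L. Over all tested gene models, 1.4% at citalopram 1000 µg/L and 1.38% at 10 µg/L lay wholly above ERM. Of the 58 members this held for cyp1a and cyp1c2 at 1000 µg/L, and for cyp1a, cyp1c1, cyp1c2, cyp2k21 and cyp2y3 at 10 µg/L. No member lay wholly below ERM at 10 µg/L, where 1.13% of gene models did.

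**Figure D3:**
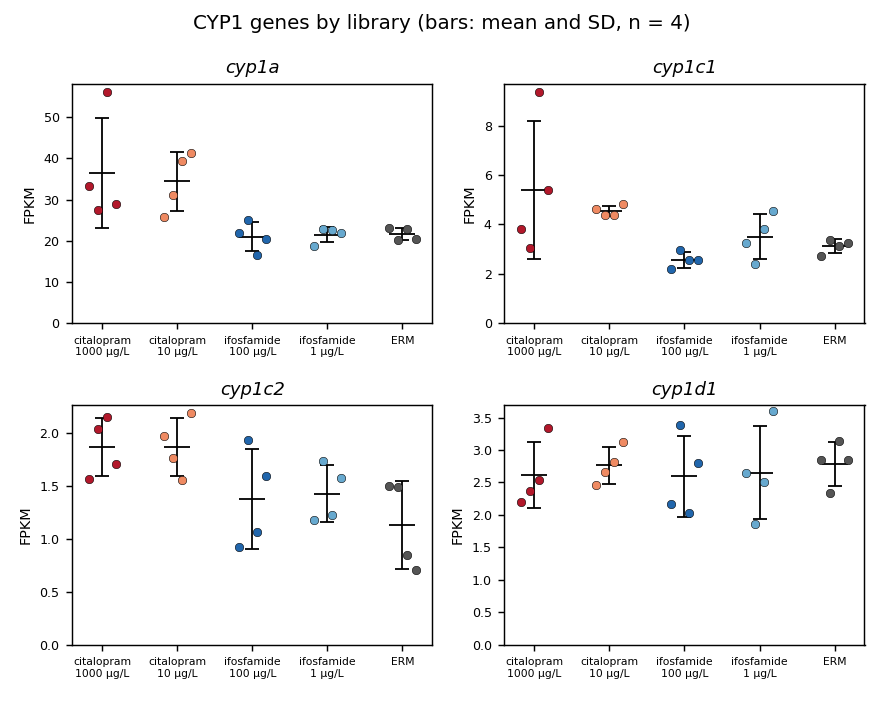
FPKM (vertical axis, from 0) of the 4 tested CYP1 genes in each library of the 5 groups; bars show mean and SD (n = 4). Every citalopram library exceeds every ERM library in cyp1a and cyp1c2, with library C of citalopram 1000 µg/L the highest in cyp1a at 56.2 FPKM.

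The CYP3 genes act on drugs and steroids. cyp3a65 had 773, 616, 1045 and 596 FPKM at citalopram 1000 µg/L and 597, 750, 801 and 1168 FPKM at 10 µg/L. Under ifosfamide it had 523, 869, 298 and 612 FPKM at 100 µg/L and 600.5, 507, 599.8 and 538 FPKM at 1 µg/L. The ERM libraries held 843, 638, 718 and 747 FPKM. Only ifosfamide 1 µg/L did not overlap ERM, lying wholly below it, as 4.8% of all tested gene models did in that comparison. The log2 change at ifosfamide 1 µg/L was -0.39 (SE 0.28, 95% interval -0.96 to 0.19, limma adjusted p = 0.787). Over 30 alternative settings that change ran from -0.45 to -0.14, though many of them, such as leaving out a library of another group, could not move it. At ifosfamide 100 µg/L it was -0.45 (SE 0.28, limma adjusted p = 0.920) and -0.17 without library C. At citalopram 1000 µg/L the interval ran from -0.57 to 0.59, so differences up to those bounds in either direction were not distinguishable from 0. The 4 CYP3C genes lie together on chromosome 3 (40936094 to 40976582). Of these, cyp3c1 had the highest level, and its log2 change against ERM lay between -0.19 and 0.06 in the 4 drug groups. At citalopram 1000 µg/L library C held 72.5 FPKM of cyp3c1, and libraries A, B and D 37.3, 29.8 and 40.2 FPKM. ERM had 40.4, 35.9, 45.7 and 41.7 FPKM.

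Of the genes for bile acid synthesis, the liver's route from cholesterol, cyp8b1 and cyp7a1 were low against ERM, most so at ifosfamide 100 µg/L. cyp8b1 (ENSDARG00000053068, chromosome 2, 3435888 to 3437862) encodes the sterol hydroxylase that in mammals sets the amount of cholic acid. It had 7.37, 4.94, 6.74 and 7.16 FPKM at citalopram 1000 µg/L and 6.16, 9.33, 8.91 and 10.65 FPKM at 10 µg/L. At ifosfamide 100 µg/L it had 4.602, 7.60, 3.64 and 7.59 FPKM, and at 1 µg/L 7.91, 7.46, 7.31 and 5.55 FPKM. The ERM libraries had 9.995, 10.2, 10.3 and 11.95 FPKM. All groups but citalopram 10 µg/L lay wholly below ERM. Beside these values, the 13 tested liver markers had a median log2 change of -0.27 at ifosfamide 100 µg/L, -0.32 at the low dose and 0.08 at citalopram 1000 µg/L. In whole larvae, fewer cells of a type and less RNA per cell cannot be told apart.

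The log2 change of cyp8b1 was -0.81 at ifosfamide 100 µg/L (SE 0.20, 95% interval -1.22 to -0.40, limma adjusted p = 0.859) and -0.64 without library C. It was -0.53 at ifosfamide 1 µg/L (SE 0.20, limma adjusted p = 0.787) and -0.63 at citalopram 1000 µg/L (SE 0.20, limma adjusted p = 0.347). At citalopram 10 µg/L the change was -0.27 (SE 0.20, limma adjusted p = 1.00). Under the default library weights cyp8b1 passed at ifosfamide 100 µg/L (limma adjusted p = 0.0415) and citalopram 1000 µg/L (limma adjusted p = 0.0167). Under gene-by-gene weights it passed at ifosfamide 100 µg/L (limma adjusted p = 0.0301) and 1 µg/L (limma adjusted p = 0.0476). Its neighbours cyp8b2 and cyp8b3 averaged 0.220 and 0.135 FPKM.

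cyp7a1 (ENSDARG00000069018, chromosome 2, 22150134 to 22152797) encodes the rate-limiting enzyme of the classical bile acid route. At ifosfamide 100 µg/L it had 26.6, 44.7, 18.4 and 37.3 FPKM, and at 1 µg/L 57.7, 29.2, 41.0 and 38.1 FPKM. The citalopram libraries had 33.7, 34.1, 58.3 and 40.6 FPKM at 1000 µg/L and 33.4, 41.7, 52.4 and 71.2 FPKM at 10 µg/L. ERM had 55.6, 55.7, 56.4 and 64.4 FPKM. Only the high ifosfamide dose lay wholly below ERM. There the log2 change was -0.92 (SE 0.27, 95% interval -1.48 to -0.36, limma adjusted p = 0.920), and -0.69 without library C. Both weightings brought cyp7a1 past the threshold at that dose, with limma adjusted p of 0.0408 for the default weights and 0.0287 gene by gene. At ifosfamide 1 µg/L the change was -0.51 (limma adjusted p = 0.787), and at citalopram 1000 µg/L it was -0.50 (limma adjusted p = 0.760) and -0.67 without library C. Over all tested gene models, 2.54% lay wholly below ERM for the high ifosfamide dose, 4.8% for the low ifosfamide dose and 2.27% for the high citalopram dose. Of the members, 4 did so at ifosfamide 100 µg/L (cyp24a1, cyp2p9, cyp7a1, cyp8b1), 4 at 1 µg/L (cyp2n13, cyp2r1, cyp3a65, cyp8b1) and 2 at citalopram 1000 µg/L (cyp2k17, cyp8b1).

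cyp27a7, of the sterol-hydroxylating CYP27A subfamily, averaged 12.9 ± 2.40 FPKM at ifosfamide 100 µg/L and 14.3 ± 1.47 FPKM in ERM (SD, n = 4 each). The oxysterol hydroxylase gene cyp7b1 had log2 changes between -0.33 and 0.14 in the 4 drug groups, none with an unadjusted p under 0.05. cyp39a1, another oxysterol hydroxylase gene, averaged 2.52 ± 0.321 FPKM at ifosfamide 100 µg/L and 2.08 ± 0.507 FPKM in ERM. The CYP46 genes are relatives of the cholesterol hydroxylase of the mammalian brain. Of them, cyp46a1.3 had the highest level, with a mean of 3.47 FPKM. cyp46a1.4 averaged 2.37 ± 0.274 FPKM at citalopram 10 µg/L and 3.68 ± 0.818 FPKM in ERM, and its log2 change was -0.46 (SE 0.17, limma adjusted p = 1.00).

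**Figure D4:**
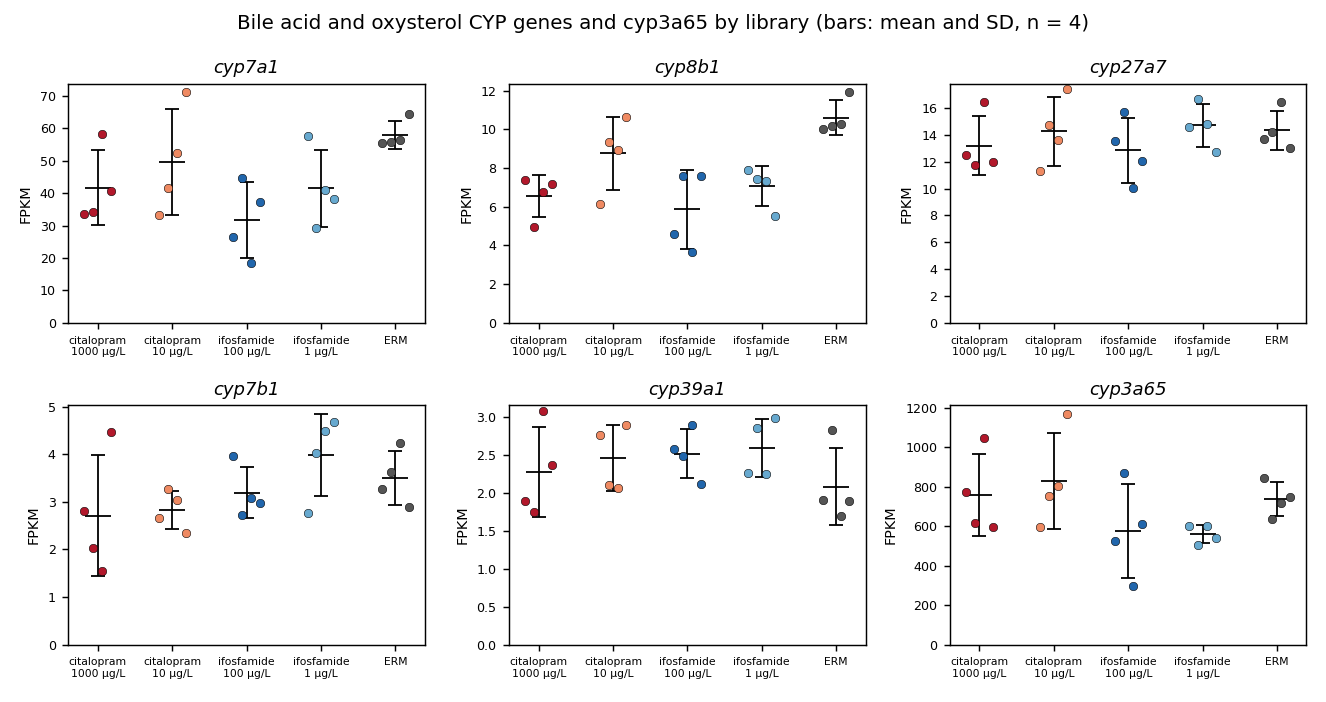
FPKM (vertical axis, from 0) of 5 bile acid and oxysterol genes and of cyp3a65 in each library of the 5 groups; bars show mean and SD (n = 4). cyp8b1 lies below ERM in every library of citalopram 1000 µg/L and of both ifosfamide doses, and cyp7a1 in every library of ifosfamide 100 µg/L.

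The CYP2 family, 42 members that act on drugs and fatty acids, had 30 tested members. Its median log2 change was -0.02 at citalopram 1000 µg/L, -0.03 at 10 µg/L, -0.18 for the high ifosfamide dose and -0.10 for the low one. At the high ifosfamide dose, 24 of the 30 were negative, against 15 with equal FPKM sums, where the family median was -0.01 and that of all gene models 0.15. Some members with an unadjusted p under 0.05 were low at more than 1 exposure. cyp2k18 averaged 5.74 ± 0.761 FPKM at citalopram 1000 µg/L and 6.63 ± 1.38 FPKM at ifosfamide 100 µg/L, against 8.90 ± 2.12 FPKM in ERM (SD, n = 4 each). Its log2 change was -0.54 at the first (SE 0.17, limma adjusted p = 0.371) and -0.37 at the second (SE 0.17, limma adjusted p = 0.920). cyp2aa3 averaged 0.772 ± 0.307 FPKM at citalopram 1000 µg/L and 0.867 ± 0.244 FPKM at ifosfamide 100 µg/L, against 1.48 ± 0.459 FPKM in ERM. It averaged 1.02 FPKM over the 20 libraries and passed the filter of 1 FPKM only through its level in ERM. Its entry into the tests thus favoured a fall against ERM. The log2 changes of cyp2aa3 were -0.48 and -0.40. cyp2k17 and cyp2k18 lie in a cluster of 8 cyp2k genes on chromosome 3 (12710350 to 12826387), with other cyp2k genes between them. At citalopram 1000 µg/L cyp2k17 had 0.753, 0.692, 1.02 and 0.834 FPKM. The ERM libraries had 1.62, 1.76, 1.42 and 1.12 FPKM, all above these, and the log2 change was -0.44 (SE 0.15, limma adjusted p = 0.449). Without library C the changes at citalopram 1000 µg/L were -0.58 for cyp2k18, -0.53 for cyp2aa3 and -0.49 for cyp2k17. All 3 passed there with the default library weights, with limma adjusted p of 0.00151 for cyp2k18, 0.000168 for cyp2aa3 and 0.00428 for cyp2k17. Those weights did not converge and gave library A of that group a weight of 15.7. In cyp2aa3 that library was the lowest at 0.312 FPKM, the others being 0.908 to 0.943 FPKM. Under gene-by-gene weights no member passed at this dose.

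Further CYP2 members had an unadjusted p under 0.05 at 1 of the ifosfamide doses, and the dose comparison passed for none of them. cyp2x8 averaged 4.70 ± 0.772 FPKM at ifosfamide 100 µg/L and 7.40 ± 1.33 FPKM in ERM (log2 change -0.56, SE 0.21, limma adjusted p = 0.920). cyp2aa2 averaged 1.46 ± 0.542 FPKM at ifosfamide 1 µg/L and 2.21 ± 0.293 FPKM in ERM (log2 change -0.41, SE 0.18, limma adjusted p = 0.787). With library weights cyp2aa2 had limma adjusted p of 0.0437 (default) and 0.0122 (gene by gene) there, and cyp2x8 0.0483 (gene by gene) at the high dose. cyp2r1, a vitamin D hydroxylase gene, averaged 6.23 ± 1.19 FPKM at citalopram 1000 µg/L, 5.02 ± 0.927 FPKM at 10 µg/L, 3.65 ± 1.38 FPKM at ifosfamide 100 µg/L and 3.62 ± 0.349 FPKM at 1 µg/L, against 4.88 ± 0.674 FPKM in ERM. Its F-test over the drug groups had a limma adjusted p of 0.675. cyp2r1 overlaps calca on the opposite strand, and whether counting used strand is not given in the sources used here. The most abundant CYP2 members were also below ERM in some groups, with wide spreads. cyp2ad3 averaged 73.5 ± 24.9 FPKM at citalopram 1000 µg/L, 67.9 ± 7.96 FPKM at ifosfamide 100 µg/L and 84.8 ± 9.09 FPKM in ERM. At citalopram 1000 µg/L library C held 111 FPKM of it and the others 58.7 to 64.5 FPKM, against 74.4 to 96.0 FPKM in ERM. cyp2n13 averaged 26.05 ± 4.401 FPKM at citalopram 1000 µg/L, 24.15 ± 3.67 FPKM at ifosfamide 1 µg/L and 30.4 ± 2.43 FPKM in ERM.

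Highest of their CYP2 subfamilies were also cyp2v1, cyp2k16, cyp2p7, cyp2aa1, cyp2u1, cyp2y3 and cyp2ae1. Their means over the 20 libraries were 17.5 FPKM for cyp2v1, 16.1 FPKM for cyp2k16, 12.9 FPKM for cyp2p7, 10.4 FPKM for cyp2aa1, 10.1 FPKM for cyp2u1, 1.77 FPKM for cyp2y3 and 1.70 FPKM for cyp2ae1. None of these 7 had an unadjusted p under 0.05 against ERM.

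The vitamin D gene cyp24a1 had 190, 193, 147 and 187 FPKM at ifosfamide 100 µg/L, against 208, 213, 201 and 199 FPKM in ERM. The groups did not overlap, while the log2 change was -0.20 (SE 0.22, limma adjusted p = 0.920) and -0.11 without library C. At citalopram 10 µg/L and ifosfamide 1 µg/L the spread of cyp24a1 was wider, with SDs of 47.6 and 47.0 FPKM against 6.62 FPKM in ERM. The CYP26 genes clear retinoic acid. cyp26a1 averaged 3.15 ± 0.962 FPKM at citalopram 1000 µg/L, 3.24 ± 0.348 FPKM at 10 µg/L, 1.94 ± 0.548 FPKM at ifosfamide 100 µg/L and 2.03 ± 0.431 FPKM at 1 µg/L, against 2.55 ± 0.282 FPKM in ERM. The citalopram means were above and the ifosfamide means below ERM, each group overlapping it, and the F-test had a limma adjusted p of 0.699. cyp26b1, the highest of the family, had the smallest relative spread of the 58 tested members and ranged from 4.42 to 5.98 FPKM over all libraries.

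Of the 7 steroid genes, 3 were tested. cyp11c1, whose product makes cortisol in fish, averaged 1.81 ± 0.574 FPKM at citalopram 1000 µg/L and 1.26 ± 0.346 FPKM in ERM. cyp17a2, also of the steroid route, averaged 1.94 ± 0.643 FPKM at citalopram 1000 µg/L and 1.23 ± 0.649 FPKM in ERM. It overlaps egr4 on the opposite strand. Neither had an unadjusted p under 0.05. The orphan gene cyp20a1, whose substrate is unknown, had 10.44, 10.4, 19.1 and 8.40 FPKM at citalopram 1000 µg/L and 9.10, 7.08, 8.40 and 9.35 FPKM in ERM. Its log2 change of 0.41 (SE 0.19, limma adjusted p = 0.664) was 0.18 without library C.

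Doses of the same drug were compared directly. At an unadjusted p under 0.05, 2 members were higher and 1 lower at citalopram 1000 µg/L than at 10 µg/L, against 1.49% and 2.18% of all tested gene models. cyp2x7 had a log2 change of 0.46 (limma adjusted p = 1.00) and 0.24 without library C, and cyp20a1 0.41 and 0.18 without library C. cyp2k18 had -0.36 (limma adjusted p = 1.00), and lay wholly below the low dose, as 0.826% of all tested gene models did. Between ifosfamide 100 and 1 µg/L, 0 members were higher and 1 was lower, against 0.456% and 0.395% (0.852% together). That gene, cyp2ae1, averaged 1.46 ± 0.475 FPKM at 100 µg/L and 2.15 ± 0.245 FPKM at 1 µg/L (log2 change -0.38, limma adjusted p = 1.00). The change of cyp1a between citalopram doses was 0.05 (95% interval -0.36 to 0.45), and that of cyp8b1 between ifosfamide doses was -0.27 (95% interval -0.68 to 0.14).

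Receptors, partners and markers were read from gene lists. Of 11 tested genes of the aryl hydrocarbon receptor list other than the members, 0 passed in any comparison. Its receptor gene ahr2 averaged 15.04 ± 1.95 FPKM at ifosfamide 1 µg/L and 11.9 ± 0.573 FPKM in ERM (log2 change 0.31, limma adjusted p = 0.787), and had -0.03 at citalopram 1000 µg/L. At citalopram 10 µg/L ahr2 had 14.1, 15.7, 12.0 and 14.7 FPKM, against 11.4, 12.1, 11.4 and 12.6 FPKM in ERM. At that dose 8 of the 11 list genes were positive and 3 negative (median log2 change 0.13). At citalopram 1000 µg/L 5 were positive and 6 negative (median -0.005). The repressor gene ahrrb averaged 0.11 FPKM and was not tested. Of 19 tested genes for xenobiotic and bile acid sensors and transporters, 0 passed. The bile acid receptor gene nr1h4 averaged 2.42 ± 0.794 FPKM at ifosfamide 100 µg/L and 2.17 ± 0.341 FPKM at 1 µg/L, against 3.26 ± 0.529 FPKM in ERM (log2 changes -0.34 and -0.43). Its relative nr1h5 averaged 3.42 ± 0.951 and 3.50 ± 0.670 FPKM at these doses and 5.37 ± 0.360 FPKM in ERM (log2 changes -0.55 and -0.51), lying wholly below ERM at both, while nr1h4 did so at the low dose. nr0b2a, which represses cyp7a1 in mammals, averaged 9.84 ± 5.83 FPKM at citalopram 1000 µg/L and 4.90 ± 1.38 FPKM in ERM (log2 change 0.78, limma adjusted p = 0.664), and 0.45 without library C. Most of the list went the other way there, with 16 of the 19 genes negative and 3 positive. The list's median log2 change was -0.17, and -0.05 without library C. A link of nr0b2a to cyp7a1 was not tested. The xenobiotic receptor gene nr1i2 had log2 changes of -0.39 at citalopram 1000 µg/L (-0.12 without library C) and 0.02 at ifosfamide 100 µg/L.

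The remaining lists had 0 genes past the threshold. Of 9 tested electron transfer partners, which pass electrons to the P450 enzymes, fdxr had an unadjusted p under 0.05, with a log2 change of -0.45 at citalopram 1000 µg/L and -0.28 without library C. In the retinoid and vitamin D list of 17 tested genes, crabp1b had -0.49 at citalopram 1000 µg/L and -0.68 at ifosfamide 100 µg/L. In that list crabp2b had 0.47 at citalopram 1000 µg/L (0.25 without library C), rdh10a -0.32 at ifosfamide 100 µg/L and dhrs3b -0.46 at ifosfamide 1 µg/L. Among 4 tested steroid synthesis genes, srd5a2a had -0.44 at ifosfamide 1 µg/L.

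Markers of liver, intestine and exocrine pancreas were low beside the members in the ifosfamide groups. All 13 tested liver markers had negative log2 changes at both ifosfamide doses, with medians of -0.27 at 100 µg/L and -0.32 at 1 µg/L, and 0 passed. With equal FPKM sums 9 of the 13 were negative at either dose, and the medians, -0.07 and -0.08, lay below the 0.15 and 0.19 of all gene models. Their median was 0.08 at citalopram 1000 µg/L, -0.14 without library C, and -0.01 at 10 µg/L. None of the 14 liver genes was at 0 in a whole group, and fabp10a, the liver fatty acid binding protein gene, averaged 901 FPKM over all libraries. The summed FPKM of the 14 ranged from 2214 to 6506 at citalopram 1000 µg/L, 2233 to 4540 at 10 µg/L, 2035 to 3446 at ifosfamide 100 µg/L, 2028 to 2837 at 1 µg/L, against 2721 to 3143 in ERM. All 9 tested intestine markers were also negative at both ifosfamide doses (medians -0.32 and -0.32), as were all 7 tested pancreas markers (medians -0.20 and -0.33). Equal FPKM sums left 7 of 9 intestine markers negative at each dose, and 3 and 5 of 7 pancreas markers. Without library C of ifosfamide 100 µg/L the medians at that dose were -0.21 for liver, -0.10 for intestine and -0.07 for pancreas. The part of these tissues in the changes of the members was not tested beyond the liver covariate. The intestine gene chia.3 had -0.98 at citalopram 1000 µg/L and -0.69 at ifosfamide 100 µg/L, and the liver gene apobb.1 -0.66 at citalopram 1000 µg/L, -0.31 without library C. The medians of 5 tested kidney markers were -0.10 and -0.25 at the ifosfamide doses, and those of 6 glia markers -0.17 and -0.11. Of 7 interrenal and gonad markers only 2 were tested.

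With log2 of the summed liver FPKM as a covariate, the log2 change of cyp8b1 was -0.73 at ifosfamide 100 µg/L, -0.45 at 1 µg/L and -0.67 at citalopram 1000 µg/L. For cyp7a1 it was -0.77 at ifosfamide 100 µg/L and -0.58 at citalopram 1000 µg/L, and for cyp1a 0.59 at citalopram 1000 µg/L and 0.62 at 10 µg/L. The change of cyp3a65 at ifosfamide 1 µg/L was -0.21 with this covariate and -0.39 without it. Across the 20 libraries, cyp3a65 correlated with the summed liver FPKM on log2 scales, with Pearson r of 0.67 (permutation p = 0.0004, adjusted 0.0016) and Spearman rho of 0.77 (permutation p = 0.00012, adjusted 0.00048). Leaving out the 2 farthest libraries gave an r of 0.64, and deviations from group means an r of 0.60. For cyp1a the r was 0.70 (permutation p = 0.0025, adjusted 0.005) with rho 0.40 (permutation p = 0.0826, adjusted 0.0826). The r of cyp1a was 0.32 without the 2 farthest libraries, so the pooled relation rested on them, and 0.79 for deviations from group means over all 20 libraries. The values for cyp7a1 were r 0.52 (permutation p = 0.00992, adjusted 0.0132) and rho 0.62 (permutation p = 0.0042, adjusted 0.0084), with 0.52 without the farthest 2 and 0.53 within groups. cyp8b1 had r 0.37 (permutation p = 0.0949, adjusted 0.0949) and rho 0.55 (permutation p = 0.012, adjusted 0.0161), with 0.61 without them and 0.39 within groups. These 4 relations share libraries and depth. The permutations shuffled all 20 libraries without regard to group, so their p-values also take in differences between groups. The r values for deviations from group means were not tested. The liver sum, used here and as the covariate, gives most weight to abundant genes such as apoa2 and fabp10a, which averaged 931 and 901 FPKM. In library C of citalopram 1000 µg/L the sum was the highest, at 6506 FPKM. There apoa2 had 3061 FPKM, while the liver gene apobb.1 was the lowest of all 20 libraries at 46.3 FPKM. The sum thus does not follow each liver marker.

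**Figure D5:**
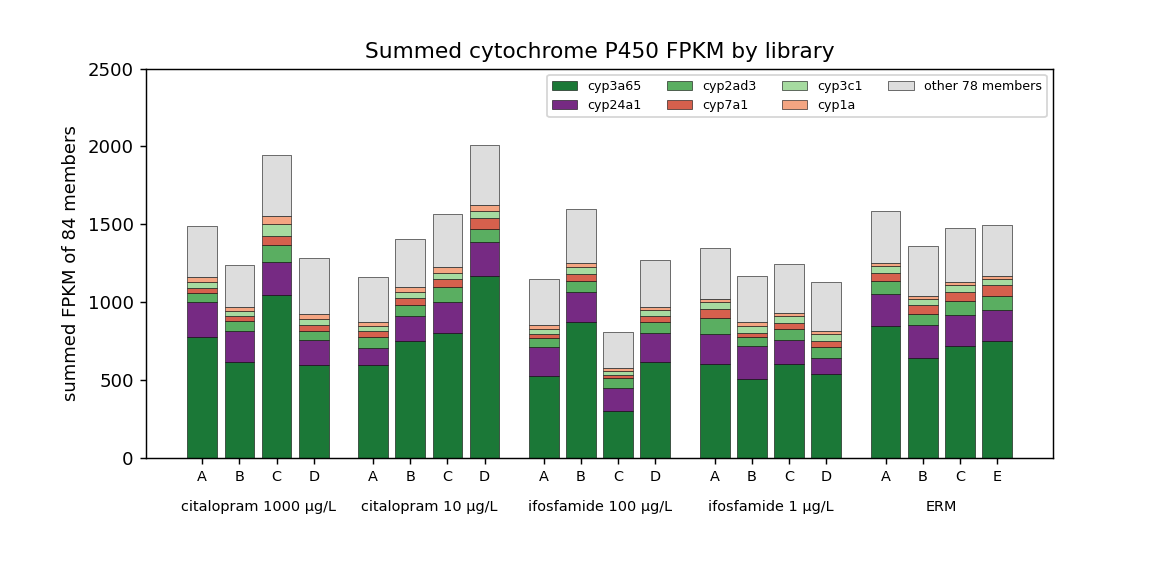
Summed FPKM of the 84 members (vertical axis, from 0) in each library of the 5 groups, split into the 6 most abundant members and the other 78. cyp3a65 makes up 36.9% to 58.1% of each bar, and the lowest bar is library C of ifosfamide 100 µg/L at 808.

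The summed level followed cyp3a65. It averaged 1487 ± 323 FPKM at citalopram 1000 µg/L, 1536 ± 356 at 10 µg/L, 1205 ± 327 at ifosfamide 100 µg/L, 1223 ± 96.3 at 1 µg/L, against 1479 ± 94.2 in ERM (SD, n = 4 each). The lowest library was C of ifosfamide 100 µg/L at 808 FPKM and the highest D of citalopram 10 µg/L at 2008 FPKM. Ifosfamide 1 µg/L ran from 1131 to 1348 FPKM, below all ERM libraries, which ran from 1359 to 1588 FPKM. These sums were not recomputed with libraries scaled to equal FPKM sums. That scaling moved the median of all gene models to 0.19 at ifosfamide 1 µg/L.

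With gaps of up to 500000 bases, 58 of the 84 members fell into 12 groups of neighbours, some with other gene models between them, and 26 stood alone. The largest held 11 members on chromosome 20 (25515259 to 25615802), from cyp2n13 to cyp2j20, with mean levels from 76.5 FPKM for cyp2ad3 down to 0.0671 FPKM for cyp2j20. Another held 10 members on chromosome 23 (42292748 to 42666469), 9 of them cyp2aa genes. Near-identical neighbours can share reads, and 25 members overlap another gene model, 12 on the same strand and 16 on the opposite one, so levels of single members in such groups are uncertain. cyp3a65, cyp1a, cyp7a1 and cyp8b1 overlap no other gene model.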

How the data were processed

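RNA of whole larvae was measured in 20 libraries, 4 in each of 5 groups. Per the labels' protocols, poly(A) RNA was selected and libraries were made with a directional kit. Tools listed in the submitters' processing notes, with neither version nor role, are fastp, HISAT2, featureCounts and DESeq2, and the build is GRCz11. The authors deposited FPKM values for 38718 gene models. FPKM times gene length gave whole reads within 0.01 for 100% of values, in every library, and the scaling equalled median-of-ratios size factors in all libraries.

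Tests used limma 3.58.1 in R 4.3.3 with an intensity trend on log2(FPKM + 1), where a fold change understates that of low genes, over the 19723 gene models with mean FPKM of at least 1. All 20 libraries shared 1 model with 15 residual degrees of freedom. Tests were two-sided, and p was adjusted by Benjamini-Hochberg over all tested gene models within each comparison. The model was checked on simulated data in which each gene had the same spread in all libraries. That check does not cover libraries of unequal spread, as the library weights estimated here. Correlations used a permutation test with 100000 resamples in SciPy 1.17.1. Figures were drawn with matplotlib 3.10.9.

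Named members were cyp1a, cyp3a65, cyp8b1, those with an unadjusted p under 0.05, the highest of each subfamily and the 2 nearest to the filter on each side. Other genes were named after their values were seen. Members and lists were chosen with earlier results of these data known. Libraries were left out in turn, and 10 other alternatives were run: the pseudocount, 2 filters, scaling, voom on recovered reads, library weights, a replicate block, only the groups compared and, added after the data were seen, a liver covariate and gene-by-gene weights. The planned default weights stopped before converging and gave library A of citalopram 1000 µg/L a weight of 15.7. The gene-by-gene weights were added once that was seen, and both are reported.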

Additional observations from a re-analysis of the deposited data

Results flagged for a closer look

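Of 195 sets of 4 libraries (39 named members in 5 groups), 14 had a library far from the other 3, where about 9.75 would be by chance at 1 in 20. The 14 include genes at 0 in the other 3 libraries, to which that rate does not apply. Library C of citalopram 1000 µg/L was the far one, and the highest, in cyp2ad3 (111 FPKM, the others 58.7 to 64.5), cyp2k16 (25.0 FPKM, the others 12.5 to 13.6), cyp27a7 (16.5 FPKM, the others 11.8 to 12.5) and cyp4t8 (3.33 FPKM, the others 0.600 to 0.995). In cyp2aa3 it was library A of that group, the lowest at 0.312 FPKM with the others at 0.908 to 0.943.

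Library C of ifosfamide 100 µg/L was lowest in cyp24a1 (147 FPKM, the others 187 to 193). Library A of ifosfamide 1 µg/L was highest in cyp2v1 (22.04 FPKM, the others 16.8 to 17.4). Library E of ERM was highest in cyp7a1 (64.4 FPKM, the others 55.6 to 56.4) and in cyp8b1 (11.9 FPKM, the others 9.995 to 10.3).

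The last 5 sets concern genes at 0 in the other 3 libraries, where any value above 0 counts as far. cyp19a1a had 0.0635 FPKM in library A of citalopram 1000 µg/L, 0.0460 FPKM in library B of citalopram 10 µg/L, 0.0407 FPKM in library A of ifosfamide 1 µg/L and 0.0435 FPKM in library E of ERM. cyp21a2 had 0.0251 FPKM in library C of citalopram 10 µg/L.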

How the results depend on the processing

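The count of members past the threshold stayed at 0 in all 7 tests under every alternative but the library weights, and leaving out any library gave 0 to 0. Under the default weights, which did not converge, the counts were 14 for the high citalopram dose, 2 for the high and 1 for the low ifosfamide dose, 2 between citalopram doses and 25 in the F-test. Under gene-by-gene weights they were 3 at ifosfamide 100 µg/L, 3 at ifosfamide 1 µg/L and 7 in the F-test. Of all 19723 gene models, the default weights called 3879, 209, 188, 1009 and 9153 in these 5 tests, and gene-by-gene weights 860, 2033 and 2149 in those 3 and 167 at citalopram 1000 µg/L. Equal weights called 6 at citalopram 1000 µg/L and 0 in the other tests named. The cause was not tested.

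Values near 0 changed sign. cyp3a65 at citalopram 1000 µg/L had 0.01, and -0.15 with equal FPKM sums, -0.063 with gene-by-gene weights, -0.011 with the replicate block, -0.074 with the liver covariate and -0.16 to 0.11 with a library left out. With a library left out it had -0.045 to 0.28 at citalopram 10 µg/L, -0.29 to 0.055 between citalopram doses and -0.29 to 0.22 between ifosfamide doses. For cyp1a, equal FPKM sums gave -0.056 between citalopram doses, 0.22 at ifosfamide 1 µg/L and 0.14 at ifosfamide 100 µg/L, and the liver covariate -0.026, 0.16 and 0.10. Gene-by-gene weights gave cyp1a -0.028 between citalopram doses and 0.015 at ifosfamide 1 µg/L. With a library left out cyp1a had -0.17 to 0.16 between citalopram doses, -0.041 to 0.049 at ifosfamide 1 µg/L, -0.14 to 0.047 at ifosfamide 100 µg/L and -0.13 to 0.058 between ifosfamide doses. The log2 change of cyp8b1 at ifosfamide 100 µg/L was negative in all 30 alternatives, from -0.93 to -0.63. That of cyp1a at citalopram 1000 µg/L was positive in all, from 0.45 to 0.78. Many of the 30 could not move these values. These were leaving out a library of another group, the 2 filters and fitting only the groups compared. The 30 are thus not separate checks.

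With the replicate letter as a block, 0 members passed in every comparison. Of 36 same-letter pairs of libraries 13 had deviations correlated above 0.1, as had 36 of the 124 other pairs. The same-letter correlations ran from -0.435 to 0.424. Such counts cannot tell whether a letter marks a shared beaker, clutch or day. The FPKM of members below 1 rest on few reads.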
